A study of Mus musculus with 17 samples.

Results

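The genotype by injury interaction in mouse dorsal root ganglia is the difference between 2 injury effects: the change after nerve injury in ganglia labelled Twik1 knockout, minus the change after nerve injury in wild-type ganglia. All 17 of the 17 libraries of the study entered it, each through the mean of its group, as (CCI_KO minus Sham_KO) minus (CCI_WT minus Sham_WT) on the log2 scale. A positive value means that a gene was raised more, or lowered less, by injury in the knockout-labelled ganglia. The contrast was computed on all 17 libraries and again on the 15 that remain without sham knockout libraries 1 and 2.

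Bulk RNA sequencing had been done on lumbar dorsal root ganglia of levels L4 to L6, the clusters of sensory neuron bodies whose axons run in the sciatic nerve. The groups were 5 wild-type sham libraries, 5 wild-type libraries after chronic constriction injury of the nerve (CCI, in which ligatures are tied loosely around it), 4 sham libraries labelled KO for Twik1, and 3 CCI libraries labelled KO. Twik1 is a two-pore-domain potassium channel encoded by Kcnk1, and every library carries the label day 30. The sources used here do not give the age, sex or strain of the mice, which part of Kcnk1 was deleted, any pooling of ganglia or the hour at which tissue was taken.

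Injury of a peripheral axon is known to start a regeneration program in the neuron body, with induction of transcription factors such as Atf3 and of peptides such as neuropeptide Y and galanin, and with lower expression of many channels and receptors. Satellite glia, Schwann cells and macrophages around the neurons respond as well. Sensory ganglia also hold a molecular clock, in which Bmal1 and Clock drive the Per, Nr1d and Dbp genes and these in turn repress or modulate the clock.

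The libraries held 52523183 to 73584232 gene counts. Kcnk1 RNA was not lost from the libraries labelled KO: it stood at 75.1 to 114 CPM (the count scaled to a fixed library total) in the 4 sham KO libraries and at 78.3, 84.5 and 89.0 CPM in the CCI KO libraries. The wild-type libraries held 94.3 to 139 CPM, so the ranges overlapped, and whether the counted reads lie in the deleted part is not given. The Kcnk1 interaction was 0.05 ± 0.18 (SE). The summed markers of sensory neurons were similar in all libraries, at 14200 to 17700 CPM. Schwann cell markers summed to 10300 to 15400 CPM in the wild-type libraries and to 5000 to 7840 CPM in the KO-labelled libraries. In bulk RNA, fewer cells of a type and less RNA per cell cannot be told apart.

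Single libraries stood apart in ways that touch the contrast. Sham KO libraries 1 and 2 carried axon injury transcripts: Atf3, an injury-induced transcription factor, was at 141 and 103 CPM there, at 11.1 and 13.2 CPM in sham KO libraries 3 and 4, and at 9.42 to 16.8 CPM in the wild-type sham libraries. Sham KO library 4 held the highest blood cell markers, with red blood cell markers at 1140 CPM and neutrophil markers at 496 CPM, where no other library exceeded 514 and 146 CPM. In sham KO library 3 skeletal muscle markers summed to 645 CPM, against at most 169 CPM elsewhere. Wild-type sham library 1 carried an interferon response, described further on. Each deposited table also has a number in its name, which is the same for the 9 sham libraries and is another one in either CCI group. The sources used here do not explain it, and if it marks a batch, batch and group cannot be told apart here.

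No gene passed the threshold of an adjusted p of 0.05 for the interaction, in either set of libraries, by edgeR's quasi-likelihood test (0% of 23972 genes tested with all 17 libraries and 0% of 25415 without sham KO libraries 1 and 2). The smallest edgeR adjusted p was 0.102 and 0.381. With all libraries, 668 genes (2.79%) had a positive and 740 (3.09%) a negative interaction at an unadjusted p under 0.05. Without the 2 libraries these were 667 (2.62%) and 650 (2.56%). The counts of group members below are read against these shares. The median interaction of all tested genes was -0.01 and -0.002, with 48.2% and 49.7% of genes positive. On the same libraries DESeq2's test called 21 and 5 genes, and limma-voom called 0 and 0.

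The injury effects that make up the contrast differed in how many genes passed the test. With all libraries, injury raised 562 genes (2.34%) and lowered 171 (0.713%) in wild type, and raised 17 (0.0709%) and lowered 3 (0.0125%) in the KO-labelled libraries. Without sham KO libraries 1 and 2, the wild-type counts were 722 (2.84%) and 258 (1.02%), and the KO-labelled counts were 139 (0.547%) and 8 (0.0315%). The KO comparison rests on fewer libraries, and these counts do not test the difference between genotypes. The interaction and the single comparisons share their libraries, so they are not independent of each other. Nothing in the labels says whether each library is another animal, and p-values then measure the spread between these samples.

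Clock genes held the 2 genes nearest to a call beside Smad6. Dbp (GRCm39 chromosome 7, 45354512 to 45359627), a transcription factor that is driven by the clock, was at 26.7, 27.4, 24.9, 32.0 and 30.1 CPM in the wild-type sham libraries and at 8.38, 9.05, 10.3, 10.3 and 9.62 CPM after injury. In the KO-labelled libraries it was at 16.0, 16.5, 26.9 and 22.8 CPM in sham and at 18.8, 22.1 and 12 CPM after injury. The wild-type groups were far apart, whereas the KO-labelled groups overlapped, with sham libraries 1 and 2 the low ones of their group. With all 17 libraries, Dbp fell by 1.57 on the log2 scale in wild type (edgeR adjusted p 1.47e-05). Its KO estimate, which includes the low sham libraries 1 and 2, was -0.22 (edgeR adjusted p 0.82). The interaction was 1.34 ± 0.23 (edgeR adjusted p 0.102), and 1.07 ± 0.22 (edgeR adjusted p 0.382) without sham KO libraries 1 and 2.

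Ciart, a repressor of the Clock and Bmal1 pair, followed the same pattern. Its levels were 9.49, 10.02, 6.81, 10.1 and 11.5 CPM in wild-type sham and 2.46, 3.17, 4.14, 3.28 and 3.42 CPM in wild-type CCI libraries. The KO-labelled libraries held 7.10, 4.70, 8.55 and 8.82 CPM in sham and 8.57, 7.23 and 5.78 CPM after injury, and these groups overlapped. Sham KO libraries 1 and 2 were again the low ones of their group. With all 17 libraries, Ciart fell by 1.54 in wild type (edgeR adjusted p 3.50e-05) and the KO estimate was -0.02. The interaction was 1.52 ± 0.28 with all libraries and 1.27 ± 0.28 without the 2. Among the CCI libraries, Ciart was higher in those labelled KO by 1.13 (edgeR adjusted p 0.00689) and Dbp by 0.88 (edgeR adjusted p 0.0155), while the sham differences of -0.39 and -0.46 did not pass the test.

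Of 24 clock genes and outputs tested with all libraries, 7 had a positive interaction at an unadjusted p under 0.05 (Dbp, Ciart, Per3, Nr1d2, Nr1d1, Tef and Per1) and 2 a negative one (Bmal1 and Bhlhe41). Without sham KO libraries 1 and 2 there were 6 positive (Dbp, Ciart, Per3, Nr1d2, Nr1d1 and Clock) and 0 negative of 25. The list's medians were 0.10 in both, with 13 of 24 and 18 of 25 members positive. The period gene Per3 had an interaction of 1.01 ± 0.24 (0.73 ± 0.24 without the 2 libraries), Nr1d1, which encodes the repressor Rev-erb alpha, 0.79 ± 0.22 (0.57 ± 0.22), and its relative Nr1d2 0.64 ± 0.17 (0.45 ± 0.16). In wild type all 3 fell with injury, by 0.87, 1.08 and 0.42, with edgeR adjusted p of 0.00168, 0.000303 and 0.0367. With all 17 libraries their KO estimates were 0.13, -0.29 and 0.23, and none passed. These estimates include sham KO libraries 1 and 2. Without those libraries the interactions of Dbp, Ciart, Per3, Nr1d1 and Nr1d2 were all smaller.

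The activator gene Bmal1 moved the other way. Injury raised it in wild type by 1.54 (edgeR adjusted p 0.000197), from 1.85 to 4.30 CPM in sham to 6.60 to 11 CPM after CCI, with no overlap. In the KO-labelled libraries it was at 2.32 to 3.77 CPM in sham and at 5.30, 3.53 and 5.15 CPM after CCI, and these ranges overlapped. The Bmal1 interaction was -0.81 ± 0.35, and -0.68 ± 0.37 without the 2 libraries. Nfil3, a repressor that competes with Dbp for its sites, gave -0.49 ± 0.26. Per2, a period gene that responds to both the clock and outside signals, had estimates of -0.62 in wild type and -0.64 in KO, and an interaction of -0.02 ± 0.27. Time of day was not given, and its part in these values was not tested.

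**Figure D1:**
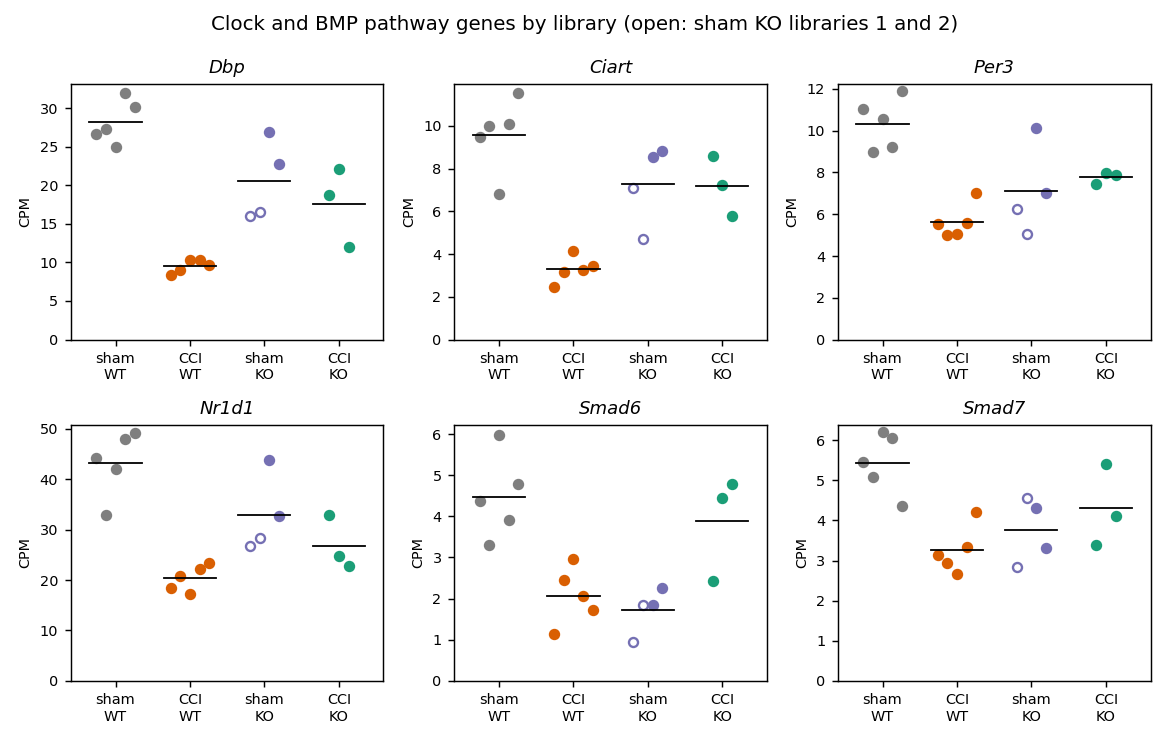
Expression in CPM (vertical axes, from 0) of Dbp, Ciart, Per3, Nr1d1, Smad6 and Smad7 in each library of the 4 groups, with sham KO libraries 1 and 2 as open points and the group mean as a line. In wild type the Dbp, Ciart, Per3, Nr1d1 and Smad7 points after CCI lie below the sham points, as do those of Smad6, and in the KO-labelled libraries the 2 groups overlap for all but Smad6. For Dbp they overlap only through the open points.

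The promoters of these clock genes show which of them carry the letters of the clock's best known binding motifs near the start site. The RefSeq table of promoter windows (GRCm38.p6, 250 bases before to 50 after the start) holds 20 of the 25 listed clock genes and all 7 with a positive interaction. It was searched on both strands for the E-box CACGTG, bound by Clock with Bmal1, and for the D-box TTATGTAA, bound by Dbp, Tef and Nfil3. The motifs do not overlap each other. The E-box was in 7.15% and the D-box in 0.938% of all 32851 windows. Of the 20 clock genes, 5 held an E-box (Per1, Cry1, Tef, Ciart and Bhlhe41) and 1 a D-box (Per3). Ciart, Tef, Per1 and Per3 are among the 7 genes with a positive interaction, and Bhlhe41 is one with a negative interaction. Genes can have several windows, so counts per gene and shares per window are unlike measures. A match describes letters, not a bound site. The stretches below run 5′ to 3′ on the gene's strand with the motif in capitals, at positions found by exact match in GRCm39.
Ciart, minus strand of chr3:95789539-95789696: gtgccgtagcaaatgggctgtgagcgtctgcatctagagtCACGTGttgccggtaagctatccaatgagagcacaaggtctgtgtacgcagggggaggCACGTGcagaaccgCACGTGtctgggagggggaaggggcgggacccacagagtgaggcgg
Per3, minus strand of chr4:151129233-151129367: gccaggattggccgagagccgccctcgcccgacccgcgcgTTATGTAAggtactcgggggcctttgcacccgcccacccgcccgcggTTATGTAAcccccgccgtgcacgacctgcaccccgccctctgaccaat
Tef (1 of 2 windows with the motif), plus strand of chr15:81686707-81686792: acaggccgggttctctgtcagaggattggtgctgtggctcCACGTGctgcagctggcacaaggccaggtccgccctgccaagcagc
Per1, plus strand of chr11:68989569-68989654: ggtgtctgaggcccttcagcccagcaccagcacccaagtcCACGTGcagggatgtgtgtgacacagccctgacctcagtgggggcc
Ciart held 3 E-boxes, and Per3 held 2 D-boxes. Any relation of the motifs to the interaction was not tested. The windows of Dbp, Nr1d1 and Nr1d2 held neither string.

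Smad6 (chromosome 9, 63860341 to 63929793), an inhibitor of bone morphogenetic protein (BMP) signalling, had the smallest p of all genes with all libraries. It was at 4.37, 3.30, 5.97, 3.92 and 4.79 CPM in wild-type sham and at 1.13, 2.46, 2.97, 2.06 and 1.72 CPM in wild-type CCI libraries. In the KO-labelled libraries the order was opposite, with 0.932, 1.85, 1.85 and 2.25 CPM in sham and 2.43, 4.44 and 4.78 CPM after CCI, and neither pair of groups overlapped. Smad6 fell by 1.11 in wild type (edgeR adjusted p 0.018), and its KO estimate of 1.17 did not pass (edgeR adjusted p 0.218). The interaction was 2.29 ± 0.42 (edgeR adjusted p 0.102), and 2.03 ± 0.44 (edgeR adjusted p 0.457) without sham KO libraries 1 and 2. In sham the KO-labelled libraries were lower by 1.38 (an estimate of -1.38, edgeR adjusted p 0.0176).

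Of 30 BMP pathway genes tested, 4 were positive at an unadjusted p under 0.05 (Smad6, Smad7, Bambi and Eng) and 4 negative (Smurf1, Fst, Grem1 and Acvr1). Without the 2 libraries 5 were positive and 2 negative, and the median was 0.18 in both. Other inhibitors differed in sign. Smad7, which like Smad6 is an inhibitory Smad, had 0.93 ± 0.29, and Bambi, a decoy receptor, 0.45 ± 0.17. The BMP antagonist Grem1 had -3.86 with all libraries and -4.46 without the 2. It was tested in 24 of 25 alternatives with all libraries and in 22 of 23 without the 2. In none of them did it pass the threshold. The target gene Id1 was lower after injury in wild type by 0.72 (an estimate of -0.72, edgeR adjusted p 0.0284) and had an interaction of 0.55 ± 0.28. Smurf1, a ubiquitin ligase that marks BMP Smads for breakdown, had -0.53 ± 0.14 with all libraries and -0.66 ± 0.15 without the 2. It was at 26.6 to 32.2 CPM in wild-type sham, 32.0 to 38.2 in wild-type CCI, 31.0 to 44.1 in KO sham and 26.1 to 31.4 in KO CCI libraries. The Fst interaction of -2.61 ± 0.84 became -0.50 ± 0.40 without sham KO libraries 1 and 2, where this BMP and activin antagonist was at 28.0 and 19.7 CPM against 3.50 and 2.78 CPM in the other 2.

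Among neuronal genes, the acid-sensing channel Asic3 (chromosome 5, 24618381 to 24622833), which responds to extracellular protons in sensory neurons, was highest in the injured KO-labelled libraries. It was at 177, 170 and 142 CPM there and at 117, 114, 130 and 124 CPM in the KO sham libraries, with no overlap. The wild-type libraries held 136, 149, 118, 132 and 131 CPM in sham and 134, 118, 132, 125 and 129 CPM after CCI, so that 1 wild-type sham library lay above the lowest injured KO-labelled one. Injury raised Asic3 by 0.42 in the KO-labelled libraries (edgeR adjusted p 0.0406), and the wild-type estimate was -0.06 (edgeR adjusted p 0.795). The interaction was 0.49 ± 0.10 (edgeR adjusted p 0.362), and 0.42 ± 0.11 without the 2 libraries, where the KO injury effect of 0.36 no longer passed (edgeR adjusted p 0.0825). It was the 1 gene of 11 acid-sensing and ATP-gated channels with an unadjusted p under 0.05, in both sets of libraries.

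Plxna2, a semaphorin receptor of growing axons, was at 67.1, 78.8, 66.3, 77.5 and 67.0 CPM in wild-type sham and at 62.9, 54.7, 63.5, 54.0 and 54.3 CPM in wild-type CCI libraries. It fell there by 0.30 (edgeR adjusted p 0.0305). The KO-labelled libraries held 65.8, 56.8, 63.5 and 79.4 CPM in sham and 83.4, 76.3 and 81.8 CPM after CCI. The interaction was 0.58 ± 0.12, and 0.47 ± 0.13 without the 2 libraries. Of 31 semaphorins and plexins tested, 2 were positive and 2 negative at an unadjusted p under 0.05.

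Chrna7 and Htr3a, transmitter-gated channel genes, fell with injury in wild type, and their KO estimates did not pass the test. Of the 28 acetylcholine and serotonin receptors and transporter tested with all libraries, injury lowered 3 and raised 2 in wild type, and lowered 1 in the KO-labelled libraries. Of all tested genes, injury lowered 0.713% and raised 2.34% in wild type, and lowered 0.0125% in the KO-labelled libraries. Chrna7, a nicotinic acetylcholine receptor subunit, was at 17.6 to 25.9 CPM in wild-type sham and at 12.7 to 17.0 CPM in wild-type CCI libraries, with no overlap. In the KO-labelled libraries it was at 17.7 to 22.2 CPM in sham and at 24.2, 21.7 and 21.9 CPM after CCI, and these overlapped. It fell by 0.47 in wild type (edgeR adjusted p 0.00974) and had 0.62 ± 0.16, or 0.65 ± 0.19 without the 2. The serotonin-gated channel gene Htr3a fell by 0.77 in wild type (edgeR adjusted p 0.000463), from 192 to 248 CPM down to 112 to 168 CPM. Its KO-labelled libraries overlapped at 159 to 198 CPM in sham and 146 to 183 CPM after CCI, and the interaction was 0.63 ± 0.16, or 0.54 ± 0.19.

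The peptidergic nociceptor list, neurons that release substance P and CGRP, had 4 of 16 members positive and 2 negative at an unadjusted p under 0.05 with all libraries (median 0.17, 10 positive). Without sham KO libraries 1 and 2 there were 5 positive, among them Sstr2, Kit, Smr2 and Tac1, and 0 negative, and the median was 0.36 with 14 of 16 positive. Wild-type sham library 3 had the highest level of this list in its group, and without it the medians were -0.023 and 0.19. The somatostatin receptor gene Sstr2 had 0.65 ± 0.20 and 0.82 ± 0.23. Tac1, the substance P gene, was at 726 and 825 CPM in sham KO libraries 1 and 2 and at 454 and 460 CPM in libraries 3 and 4, and its interaction was 0.33 ± 0.34 with all and 0.76 ± 0.32 without the 2. Scg2, a secretory granule protein, had 0.36 ± 0.11 and 0.50 ± 0.10, and in CCI libraries it was higher in those labelled KO by 0.43 (edgeR adjusted p 0.00801), at 543, 605 and 593 CPM against 401 to 490 CPM.

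Of 39 voltage-gated potassium channels 4 were positive and 0 negative (median 0.06), and without the 2 libraries 0 and 0 (0.08). Of 28 acetylcholine and serotonin receptors and their transporter, 4 were positive and 4 negative (median 0.19), among the negative ones the serotonin transporter Slc6a4 at -4.26 ± 1.18. Without the 2 libraries 4 of 29 were positive and 3 negative, the median was 0.07, and Slc6a4 was at -2.38 ± 1.05. Without wild-type sham library 3 the median with all other libraries was 0.062. Of 36 synaptic vesicle release genes 4 were positive and 1 negative (median 0.10, 28 positive), and without the 2 libraries 2 and 0 (0.09, 27 positive). The AMPA receptor subunit Gria4, one of 20 glutamate receptors, had 0.52 ± 0.15 and 0.56 ± 0.17. Non-peptidergic and itch neuron markers had 5 of 21 negative with all libraries and 0 of 21 without the 2.

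**Figure D2:**
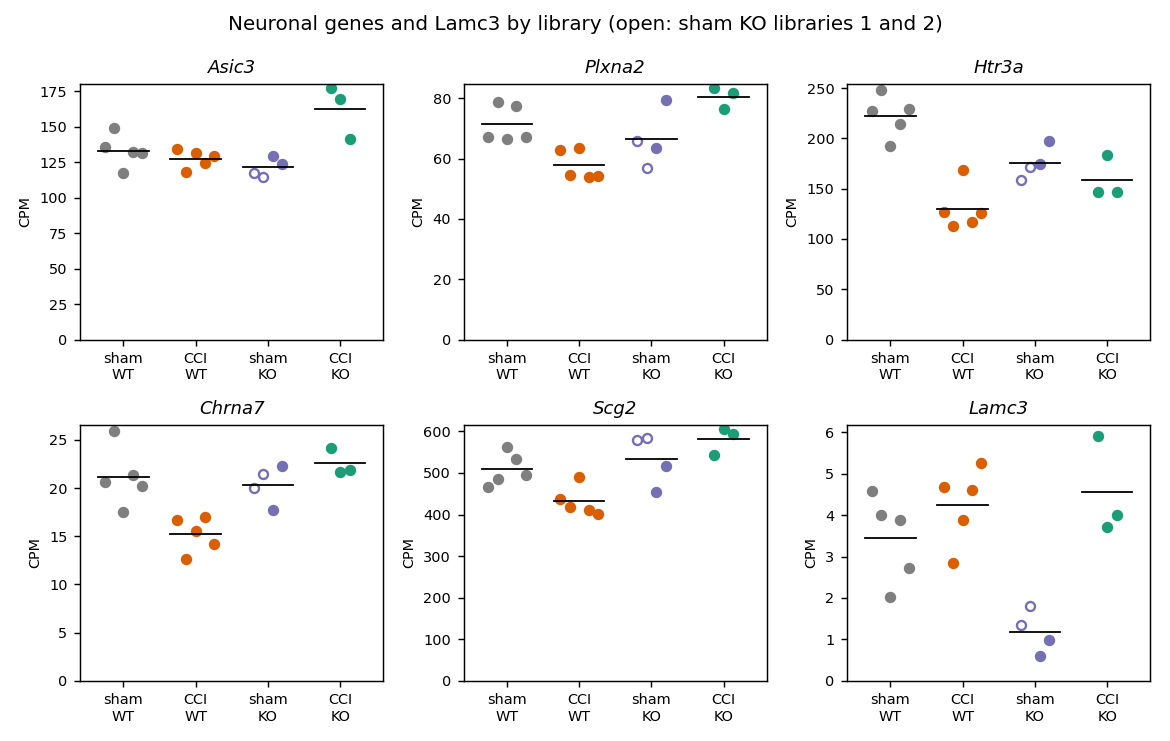
Expression in CPM (vertical axes, from 0) of Asic3, Plxna2, Htr3a, Chrna7, Scg2 and Lamc3 in each library, with sham KO libraries 1 and 2 open and the group mean as a line. The 3 injured KO-labelled libraries hold 177, 170 and 142 CPM of Asic3, and Lamc3 is at 0.610 to 1.80 CPM in the 4 sham KO libraries and at 3.71 to 5.91 CPM in the 3 injured ones.

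The interactions of axon injury genes differed between the sets of libraries. Sham KO libraries 1 and 2 had been set aside because earlier results of these data showed them apart in injury genes. Smaller interactions of such genes without them follow from that choice and are no separate result. With all 17, 33 of 34 tested members were negative, 18 of them and 0 positive ones at an unadjusted p under 0.05, with a median of -0.79. Without sham KO libraries 1 and 2, 2 were negative and 1 positive at that level, and the median was -0.11. Injury raised 23 of the 34 in wild type and 0 in the KO-labelled libraries with all 17, and 27 and 16 without the 2. Of all tested genes it raised 2.34% and 0.0709% with all 17, and 2.84% and 0.547% without the 2. The wild-type estimates of the list had a median of 1.35 in both sets, and its KO-labelled medians were 0.39 and 1.08.

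Sprr1a, a growth-associated protein of injured neurons, was at 0.0183 to 0.538 CPM in wild-type sham libraries and at 292, 371, 181, 334 and 344 CPM after CCI. The levels were 96.5, 45.4, 0.838 and 1.51 CPM in sham KO libraries 1 to 4, and 265, 87.8 and 198 CPM after CCI. The first 2 sham KO libraries thus stood between the sham and the CCI ranges of wild type. The interaction was -7.56 ± 1.74 with all libraries and -2.64 ± 0.87 (edgeR adjusted p 0.931) without the 2. The neuropeptide Y gene Npy was at 11.9, 7.66, 0.591 and 0.364 CPM in the sham KO libraries and gave -5.52 ± 1.27 and -2.09 ± 0.88.

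For other injury genes the interaction was smaller without the 2 libraries. Atf3 was at 210, 251, 108, 276 and 256 CPM in wild-type CCI and at 230, 93.8 and 175 CPM in KO CCI libraries, and its interaction went from -2.86 ± 0.97 to -0.40 ± 0.54. The transcription factor gene Sox11 went from -1.65 ± 0.65 to -0.31 ± 0.44, the stress gene Gadd45a from -1.05 ± 0.37 to -0.37 ± 0.23, and the galanin gene Gal from -1.83 ± 0.77 to -0.78 ± 0.75. Csf1, through which injured neurons act on microglia and macrophages, went from -0.66 ± 0.51 to 0.05 ± 0.47. CCI wild-type library 3 and CCI KO library 3 were the low ones of their groups for Atf3, Sprr1a, Sox11 and Gadd45a. Among genes of the injury response outside the list, Tmc5, of the transmembrane channel-like family, gave -1.77 ± 0.39 and -1.13 ± 0.37, with sham KO libraries 1 and 2 at 6.17 and 7.16 CPM and libraries 3 and 4 at 2.59 and 3.68 CPM.

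**Figure D3:**
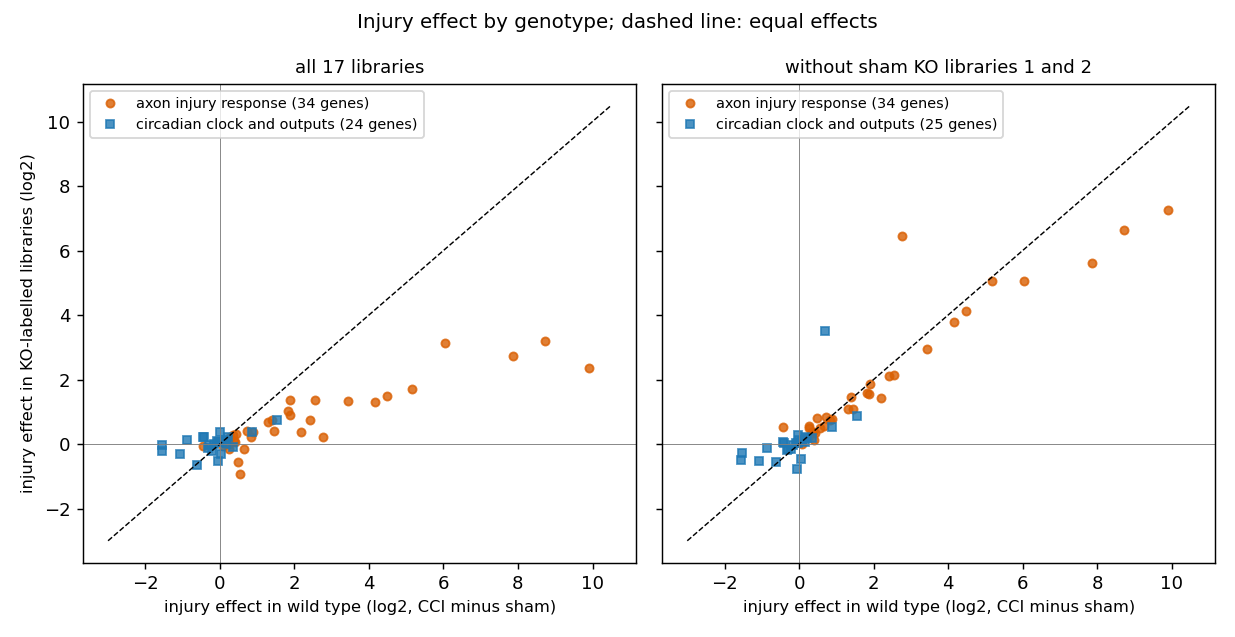
Injury effect (log2, CCI minus sham) in wild type on the horizontal axis and in the KO-labelled libraries on the vertical axis, for axon injury genes (circles) and clock genes (squares), with all 17 libraries on the left and without sham KO libraries 1 and 2 on the right. On the left the induced axon injury genes lie below the dashed line of equal effects, and on the right most lie near it, while Dbp, Ciart and Nr1d1, the leftmost squares, lie above it in both. The circle and the square high above the line on the right are Ankrd1 and Rorb, with interactions of 3.68 and 2.80.

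Lamc3 (chromosome 2, 31777258 to 31839117), a laminin chain of the extracellular matrix, had the smallest p of all genes without sham KO libraries 1 and 2. It was at 4.57, 4.00, 2.02, 3.88 and 2.73 CPM in wild-type sham and at 4.68, 2.84, 3.88, 4.59 and 5.26 CPM in wild-type CCI libraries. The sham KO libraries held 1.35, 1.80, 0.610 and 0.977 CPM, below every other library, and the CCI KO libraries 5.91, 3.71 and 4.01 CPM. Injury raised Lamc3 in the KO-labelled libraries by 1.94 (edgeR adjusted p 0.016) with all 17 and by 2.51 (edgeR adjusted p 0.00196) without the 2, and the wild-type estimate was 0.31. The interaction was 1.63 ± 0.41 (edgeR adjusted p 0.501) and 2.2 ± 0.43 (edgeR adjusted p 0.382). Of 37 collagen and laminin chains, 3 were positive and 4 negative at an unadjusted p under 0.05 (median -0.05), and without the 2 libraries 2 and 2 (-0.01).

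The glial genes Ptprz1, Ednrb and Sox10 had smaller interactions than Lamc3. Ptprz1, a receptor phosphatase of satellite glia, was at 44.0 to 51.4 CPM in all wild-type and sham KO libraries and at 62.3, 57.3 and 62.7 CPM in the CCI KO libraries. Injury raised it in the KO-labelled libraries by 0.37 (edgeR adjusted p 0.0406), and the interaction was 0.25 ± 0.09 and 0.28 ± 0.10. Ednrb, the endothelin B receptor, rose with injury in both genotypes, by 0.32 and 0.66 (edgeR adjusted p 0.0377 and 0.016), with an interaction of 0.34 ± 0.13 and 0.43 ± 0.14. Sox10, a transcription factor of glia, rose in wild type by 0.30 (edgeR adjusted p 0.00833) and had -0.25 ± 0.10 and -0.28 ± 0.11. In all, 3 of 18 satellite glial markers were positive and 1 negative (median 0.08), and 4 and 1 of 19 without the 2 libraries (0.13).

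Peripheral myelin genes had low levels in the KO-labelled libraries of both treatments and interactions near 0. The 20 genes had a median genotype difference of -0.68 in sham and -0.62 in CCI libraries, and a median interaction of 0.10, which was -0.04 without the 2 libraries. The summed Schwann cell markers given above were low in the same libraries, and their part in these values was not tested. Egr2, a regulator of myelination, was the 1 member positive at an unadjusted p under 0.05 in both sets (0.71 ± 0.29 and 0.45 ± 0.21). Of 22 endothelial markers, 4 were positive and 0 negative (median 0.25, which was 0.081 without CCI KO library 4), with the transporter gene Abcg2 at 0.47 ± 0.16.

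Macrophage genes had mostly negative interactions. With all libraries 3 of 24 were negative at an unadjusted p under 0.05 (Ms4a7, Gpnmb and Trem2) and 0 positive, and the median was -0.47 with 5 positive. Without the 2 libraries 4 were negative (Trem2, Cd68, Ms4a7 and Fcgr3), and the median was -0.56. With all libraries, injury raised 7 of the 24 in wild type and 0 in the KO-labelled libraries. Of all tested genes it raised 2.34% and 0.0709%, so the 0 is near the share of all genes. Trem2, a lipid receptor of macrophages, was at 0.505 to 1.06 CPM in wild-type sham and at 4.03, 3.80, 1.13, 2.13 and 3.68 CPM in wild-type CCI libraries. It was at 1.24, 1.03, 1.16 and 1.89 CPM in KO sham and at 2.35, 1.69 and 1.72 CPM in KO CCI libraries, and its interaction was -1.30 ± 0.49 and -1.50 ± 0.54. The summed markers of macrophages were 21.5 to 31.1 CPM in wild-type sham, 26.8 to 52.9 in wild-type CCI, 19.8 to 36.5 in KO sham and 38.2 to 45.4 in KO CCI libraries. Sham KO library 4 was the highest of its group, and without it the median interaction of the list was -0.17 with all other libraries and -0.39 on the smaller set. The lysosomal and phagocytic genes Lgals3 and Cd63, which neurons and glia also express, had -1.51 ± 0.36 and -0.59 ± 0.15, and -1.12 ± 0.37 and -0.43 ± 0.16 without the 2 libraries.

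Cell cycle genes were negative as a whole list, and that uniform sign rested on 1 library. All 19 were negative in both sets, with medians of -1.19 and -1.91, and 2 and 8 of them had an unadjusted p under 0.05. Cdk1, the mitotic kinase, was at 0.508, 1.27, 1.45 and 7.57 CPM in sham KO libraries 1 to 4 and at most 4.09 CPM elsewhere. Its interaction was -1.48 ± 0.84 with all libraries and -2.23 ± 0.60 without the 2. Without sham KO library 4, which held the highest red blood cell and neutrophil markers, 9 of 19 were positive and the median was -0.02. Without libraries 1, 2 and 4, which leaves library 3 as the only sham KO library, the median was 0.05. Foxm1, E2f8 and Kif2c, other genes of proliferating cells, had their highest level in library 4 as well, at 3.39, 4.32 and 2.7 CPM. Single genes differed in how far they rested on it. Leaving out each library of the full set in turn, E2f8 reached -0.42 and Cdk1 -0.15. Foxm1 stayed at -1.63 or below, Kif2c at -1.56 or below and the list member Plk1 at -0.89 or below.

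Interferon-stimulated genes were mostly positive, which also rested on 1 library. Of 30, 29 were positive with all libraries and 28 without the 2, with medians of 0.83 and 0.89, and none had an unadjusted p under 0.05. Ifit3, an antiviral protein, was at 388 CPM in wild-type sham library 1 and at 22.5 to 40.5 CPM in the other 4. Irf7, a regulator of interferon genes, was at 63.2 CPM there and at 5.29 to 7.84 CPM in the other 4. Without that library 14 of 30 were positive and the median was -0.02. CCI KO library 4 was also high for this list. Its level relative to wild-type sham was 1.22, against 0.027 and 0.084 in CCI KO libraries 2 and 3.

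**Figure D4:**
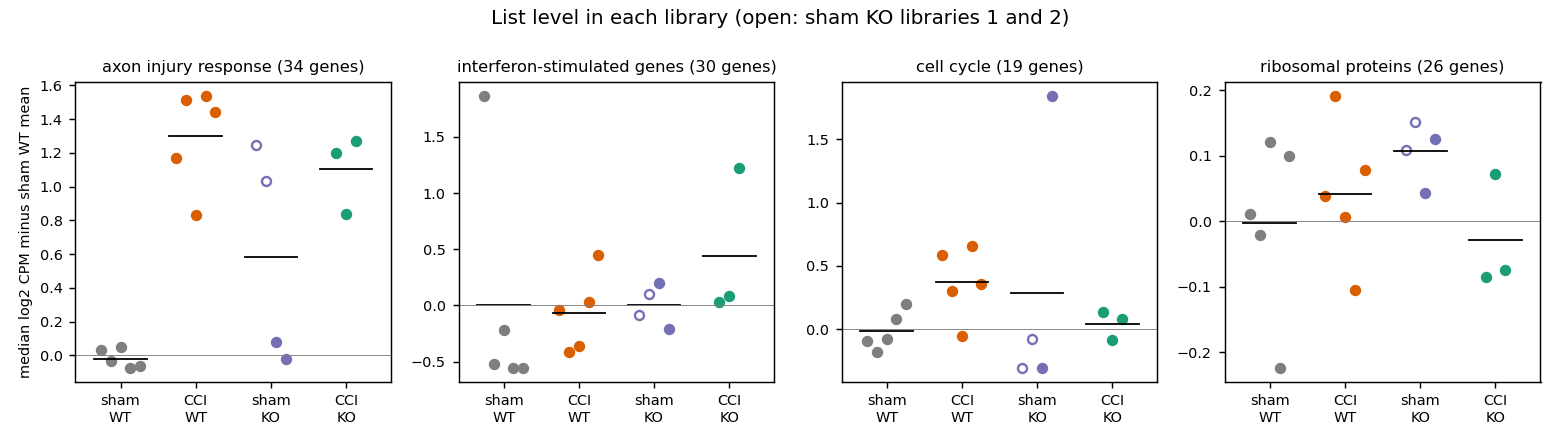
Median log2 CPM of a gene list in each library relative to the mean of the wild-type sham libraries (vertical axes), for axon injury, interferon-stimulated, cell cycle and ribosomal protein genes, with sham KO libraries 1 and 2 open and the group mean as a line. Sham KO libraries 1 and 2 lie at 1.25 and 1.03 for axon injury genes, and sham KO library 4 at 1.84 for cell cycle genes. For interferon genes, wild-type sham library 1 lies at 1.86 and CCI KO library 4 at 1.22.

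Ribosomal protein genes gave a small difference that kept its sign without any 1 library. All 26 were negative in both sets, with medians of -0.19 and -0.16, and 4 and 3 of them had an unadjusted p under 0.05. Rplp0, of the large subunit stalk, was at 77.6, 75.5, 77.6, 62.9 and 78.3 CPM in wild-type sham and at 75.6 to 85.8 CPM in wild-type CCI libraries. It was at 75.8 to 88.0 CPM in KO sham and at 66.6, 70.9 and 66.3 CPM in KO CCI libraries, where the groups did not overlap. Its interaction was -0.34 ± 0.10 and -0.30 ± 0.11. For the list's level in each library, relative to wild-type sham, the KO groups overlapped. CCI KO library 3 was at 0.072, within the sham KO range of 0.044 to 0.15, and CCI KO libraries 2 and 4 were at -0.086 and -0.075. Leaving out each library in turn gave medians from -0.26 to -0.14 with all libraries, and at most 2 of 26 positive genes. Cholesterol synthesis genes had 6 of 24 negative with all libraries, among them the sterol isomerase gene Ebp at -0.40 ± 0.11, and 1 of 24 without the 2 libraries.

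Some lists rested on single libraries. Neutrophil and lymphocyte genes had medians of -0.35 and -1.08, which were 1.17 and 1.12 without sham KO library 4. Skeletal muscle genes had medians of -0.21 and -1.15, which were 4.11 and 5.26 without sham KO library 3. Both libraries held the highest markers of those cells, as given above.

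Immediate early genes, which respond within minutes to activity and stress, had 3 of 25 positive and 4 negative at an unadjusted p under 0.05, and 1 and 3 without the 2 libraries. Fosl2 and Maff, of the AP-1 and Maf families, were negative in both sets. Glucocorticoid-responsive genes had 4 of 18 positive and 1 negative with all libraries, and 1 and 0 without the 2. Nuclear genes of oxidative phosphorylation had 0 of 30 in either direction, with medians of -0.05 and -0.11, and 12 and 11 of 13 mitochondrially encoded genes were positive. Markers of large myelinated neurons had 1 of 20 positive with a median of 0.19 (18 positive), and without the 2 libraries 0 with a median of 0.019 (11 positive). Voltage-gated sodium channels had 2 of 14 positive and then 1, and voltage-gated calcium channels 0 of 20 in both. Endoplasmic reticulum and heat shock genes had 4 of 22 negative with all libraries and 0 without the 2. Of 12 two-pore-domain potassium channels, the family of Twik1, 1 was negative (Kcnk16), and of 13 without the 2 libraries 0 were.

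**Figure D5:**
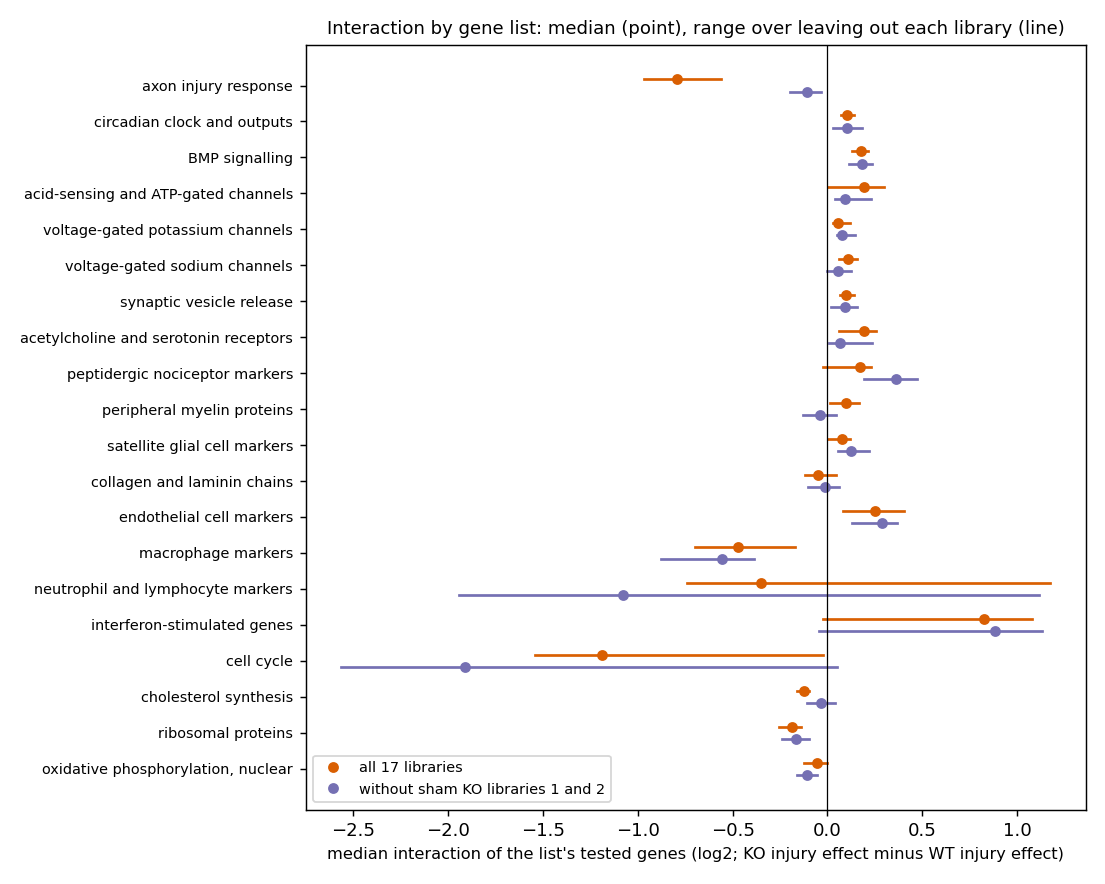
Median interaction (log2, horizontal axis) of the tested genes of 20 lists, with all 17 libraries and without sham KO libraries 1 and 2, and as a line the range of the median when each library is left out in turn. With all libraries the line ends at -0.02 for both interferon-stimulated and cell cycle genes, it stays below 0 for ribosomal protein and macrophage genes, and the axon injury median moves from -0.79 to -0.11.

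DESeq2's test on all libraries called 21 genes, among them Dbp, Smad6, Ciart, Asic3, Plxna2, Mgll, Agtr1b and Htr3a as positive and Sprr1a, Npy, Tmc5, Lgals3 and Cd63 as negative. Its smallest adjusted p were those of Gfi1b and Igkv6-15, with extreme log2 estimates of -21.9 and 19.4. These genes were counted in only 11 and 9 libraries, and their unadjusted edgeR p were 0.061 and 0.20. On the 15 libraries DESeq2's test called 5, all positive: Dhx40, Lamc3, Dbp, Mgll and Smad6. Mgll, the lipase that breaks down the endocannabinoid 2-AG, was at 99.7 to 105 CPM in wild-type sham, 86.9 to 95.7 CPM in wild-type CCI, 84.9 to 93.2 CPM in KO sham and 100 to 105 CPM in KO CCI libraries. Neither genotype's groups overlapped, and its edgeR interaction was 0.34 ± 0.07 and 0.38 ± 0.09. Agtr1b, an angiotensin receptor, fell by 0.60 in wild type (edgeR adjusted p 0.0191) and had 1.02 ± 0.23 and 0.95 ± 0.26. Dhx40, an RNA helicase family member, had 0.58 ± 0.14 and 0.73 ± 0.15. P2ry14, a receptor of UDP sugars, rose by 1.02 in wild type (edgeR adjusted p 0.00596) and had -1.30 ± 0.33 and -1.37 ± 0.37.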

How the data were processed

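The authors deposited 1 table of raw gene counts per library, per the file headers with no normalization. The submitters' processing notes name STAR 2.7.11a, bcl2fastq 2.20.0.422 and GRCm39, and per the labels' protocols libraries were made with SMART-Seq v4, which does not mark strand, so a gene and its antisense partner cannot be told apart. Rows that name no gene were left out of library sizes and tests, and reads outside genes made up 4.03% to 4.55% and ambiguous reads 7.63% to 8.17% of the counts deposited. Genes were named with GENCODE on GRCm39. Counts were tested with edgeR 4.0.16 and limma 3.58.1 in R 4.3.3 (TMM scaling, filterByExpr by group, robust quasi-likelihood F test, Benjamini-Hochberg adjustment over all tested genes, threshold 0.05), with 1 mean per group and no block. The set without sham KO libraries 1 and 2 was refitted whole. DESeq2 1.42.0, limma-voom, other scalings and filters, a replicate block and leaving out each library were alternatives. The code was tested on simulated data with known changes in well-counted genes and with less spread than these libraries have. That checks the code and not the power of the test here. CPM values use TMM-scaled library sizes, errors of log2 values are SEs, and fold estimates are log2.

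The members and gene lists were chosen with earlier results of these data known. Named genes were protein-coding with at least 1 CPM in 1 group: the 12 of smallest p in each direction with all libraries, the 8 without the 2, up to 3 per list, and a fixed set. Other genes were named after their values were seen, to show the members of a list. Some genes are not reported here. Library totals differ little, so depth limits mainly genes near 1 CPM. Pairs of libraries of a group differed by more than counting noise (chi-square per degree of freedom at least 15.4).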

Additional observations from a re-analysis of the deposited data

Results flagged for a closer look

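In 16 of 267 groups of 4 or 5 libraries, 1 library lay far from the others of its group relative to the group's range. Chance gives about 1 in 20 where groups are independent and not selected. These genes were selected, some after their values were seen, and share their libraries, so that rate is no baseline here. Wild-type sham library 1 was high for the interferon genes Ifit3 (388 CPM against 22.5 to 40.5), Ifit1 (360.0 against 25.8 to 32.4) and Irf7 (63.2 against 5.29 to 7.84) and for Csf1 (31.9 against 14.1 to 15.8). The same library was low for Tmc5 (0.823 against 1.87 to 2.32) and Chrm2 (7.09 against 13.1 to 16.7).

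Wild-type CCI library 3 was low for the axon injury genes Sox11 (26.2 CPM against 40.3 to 47.6), Gadd45a (26.4 against 43.6 to 47.7) and Cckbr (17.4 against 37.6 to 48.2). It was also low for the BMP pathway gene Acvr1 (19.6 against 31.4 to 34.7) and the immediate early gene Maff (1.88 against 2.48 to 2.72). Single values were Kcnk1 in wild-type sham library 3 (94.3 against 128 to 139), Rplp0 in wild-type sham library 4 (62.9 against 75.5 to 78.3), Col14a1 in wild-type CCI library 5 (27.5 against 16.8 to 18.1), Ednrb in sham KO library 1 (121 against 97.8 to 101) and Abcg2 in sham KO library 3 (114 against 145 to 150).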

How the results depend on the processing

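With all 17 libraries, the count of 0 genes called by edgeR was 77 without a low-count filter, 21 by DESeq2's test, and 0 to 7 when each library was left out (7 without sham KO library 3, 4 without wild-type CCI library 3, 1 without CCI KO library 4). Without sham KO libraries 1 and 2 these were 45, 5 and 0 to 39. The 39 came without sham KO library 3, where that arm is library 4 alone and is assumed to vary like the other groups. At an unadjusted p under 0.05, the 1408 genes were 3876 without a filter, 2125 by limma-voom and 1144 to 1927 leaving out each library. The 1317 genes of the smaller set were 2852 without a filter, 792 with a stricter filter and 1136 to 1871. Other scalings, a fit that was not robust and a replicate block gave 0 calls in both sets. The replicate block gave 1228 and 1293 genes at that unadjusted level. Equal replicate numbers share only a number: of 22 such pairs 1 correlated above 0.1, and 6 libraries had their best partner under their own number. Of 89 genes, 86 with all libraries and 81 on the smaller set kept their sign under every alternative listed, apart from leaving out both libraries. Leaving out both gave 0.054 for Csf1, -0.15 for Kcnk1 and 0.063 for Per2, each of the other sign, and the replicate block gave -0.076 for Csf1 on the smaller set. Leaving out each library, signs turned with all libraries for Kcnk1 (-0.029 to 0.19), Per2 (-0.14 to 0.11) and Ifit1 (-0.15 to 1.91). On the smaller set they turned for Gal (-1.34 to 0.011), Csf1 (-0.24 to 0.39), Kcnk1 (-0.30 to 0.029), Tef (-0.0014 to 0.31), Per2 (-0.15 to 0.32), Gpr151 (-0.83 to 0.26), Ifit1 (-0.10 to 2.39) and Irf7 (-0.18 to 1.58). The cause was not tested, except that the lowest Ifit1 and Irf7 values came without wild-type sham library 1. Depth limits genes near 1 CPM.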
